A study of Homo sapiens with 4 samples.

Results

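S100 proteins are small calcium-binding proteins of the EF-hand type, and 10 of their genes were followed in cadmium-resistant cells of MDA-MB-231, a human cell line from a triple-negative breast cancer. The genes were S100A2, S100A3, S100A4, S100A6, S100A10, S100A11, S100A13, S100A14, S100A16 and S100P. They were chosen as a list of symbols, with no measured value in the rule, and make up 10 of the 61541 genes in the count table. Each was found there under 1 Ensembl identifier. RNA was sequenced from untreated parental cells passaged in normal medium (n = 2) and from cells passaged in cadmium sulfate, raised stepwise to 10 µM (n = 2). Both groups come from the same line, and none of the sources used here says whether the cadmium libraries came from separately selected cultures, so p-values measure the spread between these libraries. The control libraries carry the numbers 2 and 3 in the count table and are named control 2 and control 3. The cadmium libraries are cadmium 1 and cadmium 2.

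S100 proteins form dimers that change shape on binding calcium and then dock onto target proteins such as annexins, myosin and ezrin. Several also bind zinc, S100A3 with particularly high affinity through its many cysteines, which makes the family of interest in cells exposed to a metal of the same chemical group. S100A10 is an exception that has lost calcium binding. Most of the genes lie in a cluster on the long arm of chromosome 1, within the epidermal differentiation complex, while S100P lies on chromosome 4. In breast cancer the family is best known through S100A4, also called metastasin, which promotes migration and metastasis.

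Total counts ranged from 51934729 to 61916007 reads per library. The control libraries differed from each other more than the cadmium libraries did, with a robust standard deviation of the log2 ratio across genes of 0.60 against 0.18. Of the 4 markers listed for the line, VIM and AXL had at least 39564 reads in every library, and CD44 had 20824 to 25274. MSN had 40341 and 67350 reads in the controls and 92885 and 99416 in the cadmium libraries. Both cadmium libraries lay above both controls for MSN and below both for VIM. Of the 6 luminal markers, ESR1 and PGR had at most 30 reads, while ERBB2 had 4606 to 7158, GATA3 495 to 1047, EPCAM 623 to 2547 and CDH1 113 to 578. Squamous markers, which would mark the keratinocyte lineage in which many S100 genes are abundant, were at 0 in all libraries for 4 of 6 genes, KRT5 and IVL among them, whereas KRT10 had 2403 to 2499 reads.

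The start regions of 4 members are shown because these genes carry the main differences. The annotated spans of S100A4 and S100A3 overlap, and these genes differed between the groups in opposite directions. S100A2 and S100P differed most between the controls among members averaging over 100 normalized counts. Each sequence is the 250 bases before a transcript start, from RefSeq on GRCh38.p14, 5′ to 3′ on the gene's strand. Capitals mark matches, on either strand, to the core of the metal response element bound by MTF-1 (TGCACNC or TGCGCNC) or to the AP-1 motif bound by FOS and JUN proteins (TGANTCA).
S100A4 (chr1:153545807-153546056, minus strand): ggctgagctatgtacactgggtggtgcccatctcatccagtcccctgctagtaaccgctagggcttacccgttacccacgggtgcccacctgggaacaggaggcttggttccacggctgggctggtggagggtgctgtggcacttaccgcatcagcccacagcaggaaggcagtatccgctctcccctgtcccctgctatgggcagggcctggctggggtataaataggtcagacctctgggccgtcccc
S100A3 (chr1:153549259-153549508, minus strand): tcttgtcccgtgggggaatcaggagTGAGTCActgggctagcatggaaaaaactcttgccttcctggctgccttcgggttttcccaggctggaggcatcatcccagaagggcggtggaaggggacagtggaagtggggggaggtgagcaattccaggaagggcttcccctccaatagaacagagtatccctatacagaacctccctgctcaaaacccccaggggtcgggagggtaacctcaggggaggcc
S100A2 (chr1:153565845-153566094, minus strand): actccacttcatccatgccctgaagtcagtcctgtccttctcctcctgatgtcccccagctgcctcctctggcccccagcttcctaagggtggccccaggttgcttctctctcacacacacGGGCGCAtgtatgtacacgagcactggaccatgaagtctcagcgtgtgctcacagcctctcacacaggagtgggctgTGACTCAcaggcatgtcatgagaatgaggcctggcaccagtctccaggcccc
S100P (chr4:6693628-6693877, plus strand): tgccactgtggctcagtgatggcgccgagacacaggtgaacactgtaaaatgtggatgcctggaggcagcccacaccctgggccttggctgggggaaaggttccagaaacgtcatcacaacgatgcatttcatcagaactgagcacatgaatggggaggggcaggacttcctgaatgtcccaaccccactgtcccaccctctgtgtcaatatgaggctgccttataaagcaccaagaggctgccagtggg

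Of these regions, S100A4 and S100P held neither motif. In S100A3 the capitals mark an AP-1 match that begins 225 bases before the start, and in S100A2 they mark a metal response core 129 bases before it and an AP-1 match 52 bases before it. RefSeq lists another S100A2 start, whose window held neither motif. RefSeq gave 14 start windows for the 10 members, each running from 250 bases before to 50 bases after the start. The metal response core was in 4 of the 14 (28.6%), those of S100A2, S100A6, S100A11 and S100A13, against 29.6% of 35116 windows of all genes. The AP-1 motif was in 2 of the 14 (14.3%), against 7.71% of all windows. The motifs did not overlap each other in these windows, and a match is only a description of the letters.

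Levels were compared between genes in TPM, which divides each count by gene length and scales every library to the same sum. S100A6, or calcyclin, a cell growth-associated calcium sensor, was by far the most abundant member. Its level was 11079 TPM in control 2 and 15582 TPM in control 3, against 11934 TPM in cadmium 1 and 12775 TPM in cadmium 2, which ranked it 1 or 2 among all genes in each library. It supplied 61.5% to 65.3% of the summed TPM of the 10 members. S100A10, S100A4 and S100A11 followed with mean levels of 2177, 2138 and 1815 TPM, and their order was not fixed, since S100A4 ranged from 1637 to 3300 TPM. S100A16 came next at 755 to 870 TPM, then S100A2 at 162 to 385 TPM and S100A3 at 92.4 to 150 TPM. S100P ranged from 0.291 to 58.1 TPM and overlapped both S100A13, at 15.3 to 27.6 TPM, and S100A14, the lowest at 0.215 to 2.80 TPM. Apart from the overlaps named, the range of each gene over the 4 libraries lay wholly above that of the next. The 10 genes together took 1.80% and 2.46% of the TPM in the controls and 1.88% and 1.96% in the cadmium libraries, so the cadmium values lay between the controls.

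**Figure D1:**
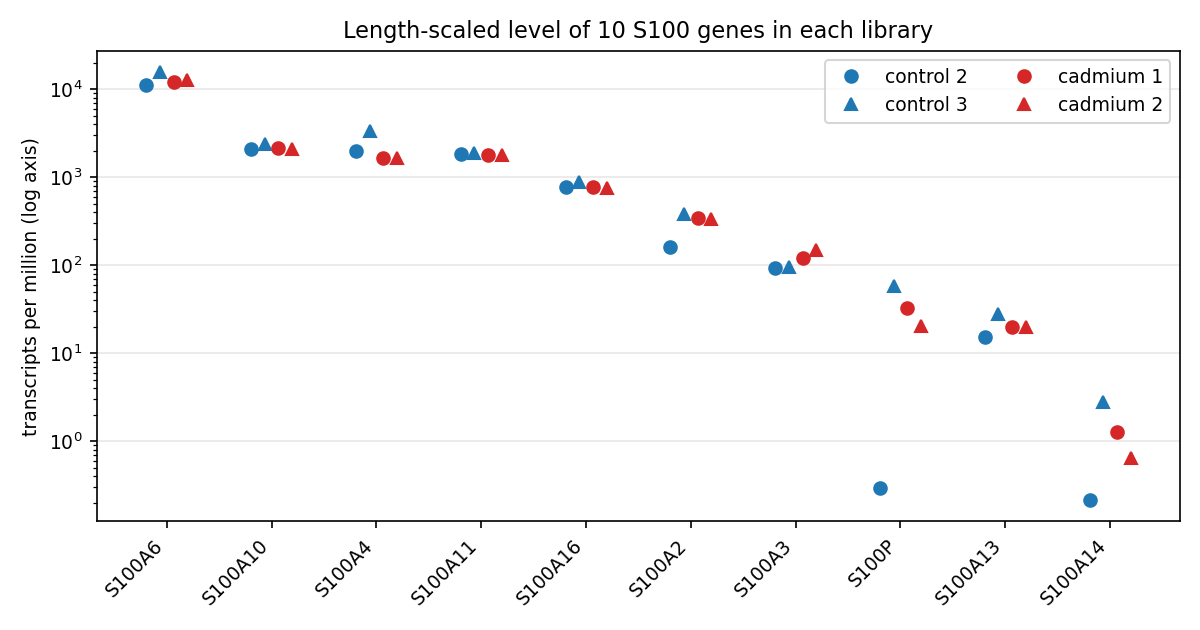
Level of each S100 gene in TPM on a log axis, with 1 point for each of the 4 libraries (blue control, red cadmium), ordered by mean level. The cadmium points lie close together for most genes, while control 2 falls far below the other libraries for S100P (0.291 TPM) and S100A14 (0.215 TPM).

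The comparison of the groups asked whether any member changed in cadmium-resistant cells. Normalized counts (counts divided by a DESeq2 size factor) differed little for most members. Among those whose groups did not overlap, S100A4 had the lowest fold change, and only S100A3 lay above the controls. None of the 10 was called by DESeq2 at an adjusted p-value below 0.1, where 1.14% of the 19816 genes tested were called. At an unadjusted p-value below 0.05, DESeq2, edgeR and limma-voom each had 1 member, S100A4, against 6.92%, 7.39% and 7.40% of all genes tested with these tools. All 10 members passed the filter on low counts. Both cadmium libraries lay above both controls for 1 member, S100A3 (20.3% of all genes tested), and below both controls for 4, S100A4, S100A10, S100A11 and S100A16 (19.9% of all genes tested). The median log2 fold change of the members was -0.13, beside -0.02 for all genes tested, with 8 members negative and 2 positive.

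S100A4 (ENSG00000196154, chromosome 1, 153543613 to 153550136 on build hg38, minus strand) had the lowest p-value of the members. Control 2 had 25832 normalized counts and control 3 had 39911, while cadmium 1 had 19722 and cadmium 2 had 20473. Both cadmium libraries were lower than either control, and the controls differed more from each other than control 2 did from the cadmium libraries. The control mean was 32871 ± 9955 and the cadmium mean 20097 ± 531 (SD, n = 2 each). DESeq2 gave a log2 fold change of -0.71 ± 0.31 (SE), with an adjusted p-value of 0.519 and an unadjusted one of 0.0224. Leaving out control 2 made it -0.99, and leaving out control 3 made it -0.37. MYH9, the heavy chain of the non-muscle myosin that S100A4 protein binds, had 166296 and 164955 normalized counts in the controls and 160514 and 164476 in the cadmium libraries, for a log2 fold change of -0.03.

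S100A3 (ENSG00000188015, 153547329 to 153549258, minus strand), whose cysteine-rich protein is best known from the hair cuticle, went the other way. Normalized counts were 1072 and 1014 in control 2 and control 3 and 1305 and 1671 in cadmium 1 and cadmium 2. The cadmium libraries were both higher, and they differed from each other by more than the controls did. By DESeq2 the log2 fold change was 0.51 ± 0.29 (SE, adjusted p = 0.793), and it lay between 0.32 and 0.67 when any 1 library was left out. The S100A3 gene lies wholly inside the annotated span of S100A4 on the same strand, although no exon bases are shared. The S100A4 start shown above lies past S100A3 in the direction of transcription, so RNA from that start does not cross S100A3. How far unspliced S100A4 RNA from starts farther upstream adds to the S100A3 count was not tested. S100A5, which lies between S100A6 and S100A4 and is not among the 10, had 251 and 400 normalized counts in the controls and 697 and 632 in the cadmium libraries. Both cadmium libraries were above both controls, with a DESeq2 log2 fold change of 1.03 ± 0.36 (SE, adjusted p = 0.229).

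Ratios of reads within a library need no scaling between libraries. S100A3 had 4.15% and 2.54% as many reads as S100A4 in control 2 and control 3, and 6.62% and 8.16% in cadmium 1 and cadmium 2. S100A5 had 0.169% and 0.207% as many reads as S100A6 in the controls and 0.473% and 0.385% in the cadmium libraries. S100A4 had 17.4% and 20.6% as many reads as S100A6 in the controls and 13.4% and 12.5% in the cadmium libraries. In each of these 3 pairs the groups did not overlap. The exact two-sided permutation p was 0.333 for each, the smallest that 2 against 2 libraries allow, so it cannot pass 0.05. The pairs were chosen after their values were seen, out of 5 ratios computed. The other ratios, S100A10 to ANXA2 and S100A11 to ANXA1, overlapped between the groups.

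**Figure D2:**
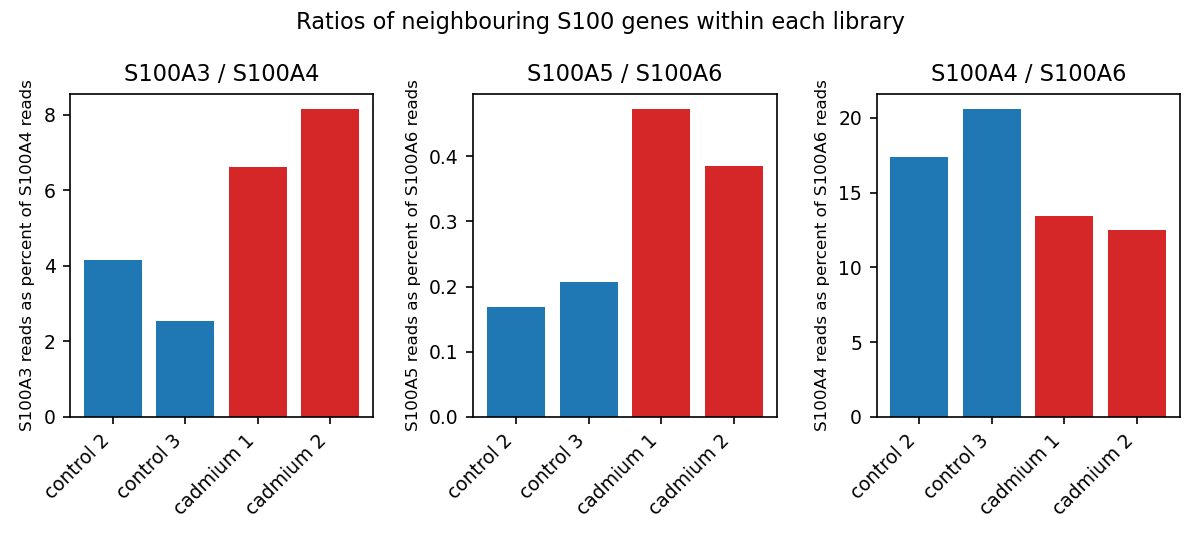
Reads of S100A3, S100A5 and S100A4 as a percent of the reads of S100A4, S100A6 and S100A6 in each library (blue control, red cadmium), with 1 bar per library and axes from 0. S100A3 per S100A4 is 4.15% and 2.54% in the controls and 6.62% and 8.16% in the cadmium libraries, and S100A4 per S100A6 is lower in both cadmium libraries (13.4% and 12.5%) than in the controls (17.4% and 20.6%).

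S100A6 (ENSG00000197956, 153534599 to 153536244) had 148478 and 193459 normalized counts in the controls and 147424 and 163963 in the cadmium libraries. The groups overlapped, the log2 fold change was -0.14 with a 95% interval of -0.67 to 0.40, and it was 0.06 without control 3. CACYBP, which encodes the calcyclin-binding protein, had a log2 fold change of -0.02.

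S100A10 (ENSG00000197747, 151982915 to 151993859), S100A11 (ENSG00000163191, 152032506 to 152047907) and S100A16 (ENSG00000188643, 153606886 to 153613145) were the steadiest members. S100A10 is the partner of annexin A2 at the cell membrane, where the complex binds plasminogen. Its normalized counts were 29449 and 31072 in the controls and 27274 and 27824 in the cadmium libraries, which put the log2 fold change at -0.14 (95% interval -0.60 to 0.33). S100A11, a partner of annexin A1 in membrane repair, had 16216 and 15609 in the controls and 14695 and 15359 in the cadmium libraries, which put it at -0.08 (-0.55 to 0.38). S100A16, a broadly expressed member, had 18004 and 18922 in the controls and 16606 and 16977 in the cadmium libraries, which put it at -0.14 (-0.60 to 0.33). In all 3 the cadmium libraries were below both controls by a small margin, and the intervals leave room for changes of either sign. The DESeq2 adjusted p-value was 1.00 for each. The smallest root mean square difference of centred log2 counts among the members, 0.00238 over the 4 libraries, was between S100A10 and S100A16. Both varied little between libraries, and genes that vary little come out close by this measure. The genes lie near opposite ends of the cluster.

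S100A2 (ENSG00000196754, 153561108 to 153567890), a p53-linked gene of basal epithelial cells that is often lost in breast cancer, had 3456 normalized counts in control 2 and 7608 in control 3. The cadmium libraries had 6820 and 6801. They lay between the controls and differed little from each other. DESeq2 put the log2 fold change at 0.30 ± 0.40 (SE, adjusted p = 1.00). The direction depended on the control, with log2 fold changes of -0.16 without control 2 and 0.97 without control 3. S100A13 (ENSG00000189171, 153618787 to 153631360), which takes part in the release of FGF1 from stressed cells, had 467 and 782 normalized counts in the controls and 559 and 581 in the cadmium libraries. Again the cadmium values lay between those of control 2 and control 3, with a log2 fold change of -0.13 from all libraries, -0.46 without control 2 and 0.27 without control 3. Of the S100A13 exon bases 33.5% are shared with other genes, S100A1 on the opposite strand among them. All members on chromosome 1 lie on the minus strand. Counting ignored strand and dropped reads that overlap several genes, so the S100A13 count is uncertain.

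S100P (ENSG00000163993, chromosome 4, 6693878 to 6697170, plus strand) binds ezrin and is produced by several carcinomas. It had 2 reads in control 2 and 329 in control 3, against 195 in cadmium 1 and 128 in cadmium 2. Control 2 was nearly without S100P reads, and the cadmium libraries lay between the controls. Control 3 had 186 times the normalized count of control 2, with a 95% counting interval of 50.9 to 1538. The cadmium libraries together had 85.2 times that of control 2, with an interval of 23.4 to 706. Both mates of a fragment were counted, so these intervals are too narrow even for counting error. With counts halved they were 32.9 to 7393 and 15.1 to 3395. Only 2 genes of the whole table, S100P and SHISAL1, had at most 3 reads in control 2 and at least 100 in each other library, a limit set after the values of S100P were seen. For S100P the log2 fold change of -0.13 had a standard error of 2.25, and it was -1.13 without control 2 and 6.39 without control 3. EZR, the gene of ezrin, had 23624 and 26590 normalized counts in the controls and 26559 and 26645 in the cadmium libraries.

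S100A14 (ENSG00000189334, 153614255 to 153616986), an epithelial member, was near the limit of detection. It had 4 reads in control 2 and 43 in control 3, against 21 in cadmium 1 and 11 in cadmium 2, which set control 2 apart in the same way. Its log2 fold change was -0.64 ± 1.25 (SE), and it was -1.53 without control 2 and 2.06 without control 3. The groups overlapped, since the controls lay on either side of the cadmium libraries. Control 3 had 12.1 times the normalized count of control 2 (3.05 to 109 with counts halved), and the cadmium libraries together had 4.22 times it (1.06 to 40.0).

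Markers of other cell types did not share one pattern over the libraries. The leukocyte marker PTPRC, with 2, 135, 37 and 43 reads in the same order of libraries, and the epithelial gene CDH1, with 113, 578, 170 and 121, were also lowest in control 2 and highest in control 3. The same held for the endothelial marker PECAM1 (169, 792, 689 and 649 reads) and the fibroblast marker COL1A1 (529, 875, 583 and 704). It did not hold for the endothelial markers VWF (26, 21, 61 and 39) and CDH5 (4, 2, 8 and 16). Nor did it hold for the fibroblast markers PDGFRB (748, 680, 533 and 738), COL1A2 (36, 20, 36 and 48) and DCN (0, 0, 0 and 4). EPCAM was highest in control 2, with 2547 reads against 623 to 778 in the other libraries. Of the other leukocyte markers, CD14 was also highest in control 2, with 234, 125, 69 and 122 reads. LYZ had 20, 29, 43 and 8 reads, CSF1R 189, 263, 253 and 310, and CD79A 12, 12, 10 and 24. The summed TPM of the 6 leukocyte markers was 13.7 and 13.9 in the controls and 9.97 and 12.1 in the cadmium libraries, with CD3E at 0 in all, and the summed TPM of the 6 luminal markers was 142 and 87.1 in the controls and 75.8 and 72.3 in the cadmium libraries. The part of these cells or states in the S100 values was not tested.

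**Figure D3:**
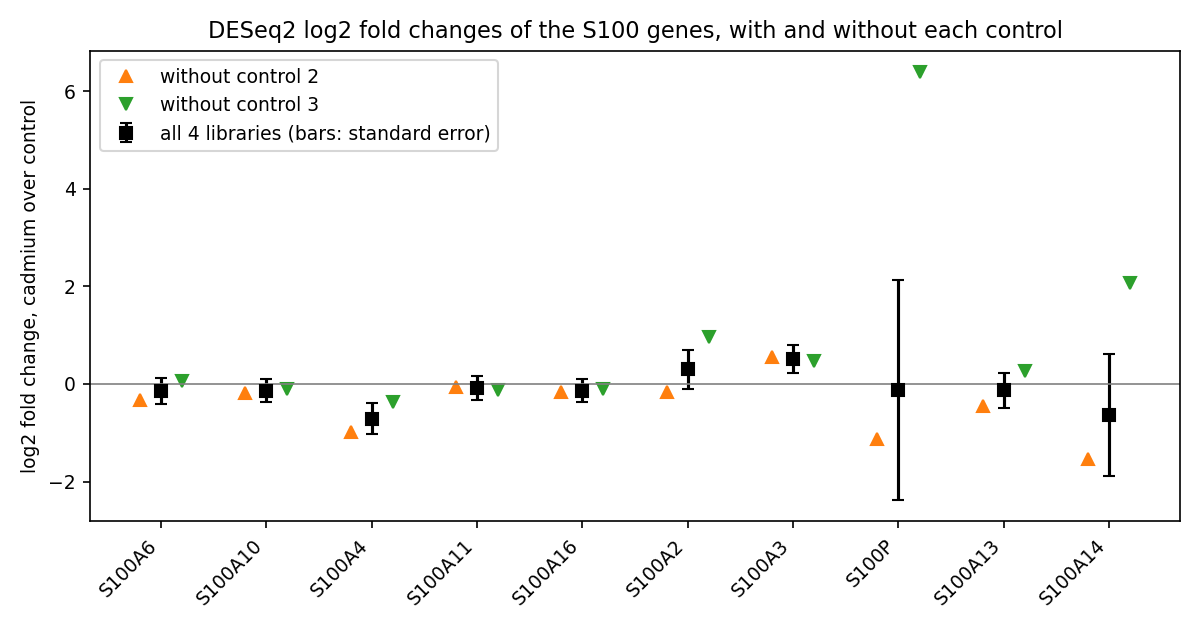
DESeq2 log2 fold change of each member, cadmium over control, with its standard error (black squares), and the value without control 2 (orange) and without control 3 (green). S100A4 stays below 0 and S100A3 above 0 in all 3 fits, while S100A2, S100A6, S100A13, S100A14 and S100P change sign with the control that is left out.

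Control 2 and control 3 gave fold changes of opposite sign for 5 of the members. With control 2 left out, DESeq2 called 4 of the 10 at an adjusted p-value below 0.1, S100A3 higher and S100A4, S100A6 and S100P lower, where 14.8% of all genes tested were called. With control 3 left out it also called 4, S100A2, S100A3 and S100P higher and S100A4 lower, where 31.2% of all genes tested were called. In these fits the lone control is assumed to vary as little as the cadmium pair does. S100A3 and S100A4 kept their direction and were called in both fits, with DESeq2 adjusted p-values of 0.0656 and 0.0844 for S100A3 and 8.89e-17 and 0.00715 for S100A4. S100P was called lower in one and higher in the other. With either cadmium library left out, DESeq2 called 0 members and 0 had an unadjusted p-value below 0.05. The median log2 fold change of the members was -0.25 without control 2 and 0.17 without control 3.

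The other S100 genes were mostly silent in this line. Of 11 such genes, 6 had no read in any library, among them S100A7, S100A8 and S100A12, which are abundant in keratinocytes or myeloid cells. A gene at 0 could have up to 3 counts by counting error. S100A9, S100B and S100Z had a mean normalized count below 10. S100A1, with at most 35 reads, had a DESeq2 log2 fold change of 0.88 ± 0.95 (SE, adjusted p = 1.00), and its exons overlap S100A13. Of the 7 fused-type S100 genes of the same chromosomal complex, FLG, HRNR, TCHH and FLG2 averaged at least 10 normalized counts. FLG, the gene of the skin barrier protein filaggrin, had 707 and 1717 in the controls and 921 and 1186 in the cadmium libraries. HRNR had 141 and 147 in the controls and 235 and 227 in the cadmium libraries, and its DESeq2 log2 fold change was 0.68 ± 0.36 (SE, adjusted p = 0.754). The values for FLG2 and TCHH were at most 49.4 normalized counts. DESeq2 called none of these other S100 and fused-type genes that passed the filter. Of them, S100A5 alone had an unadjusted p-value below 0.05, in DESeq2, edgeR and limma-voom.

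Neighbouring genes on chromosome 1 were examined because the S100 genes lie close together. Within 1 Mb of the cluster (151982915 to 153631360) 49 other genes averaged at least 100 normalized counts, the fused-type FLG and HRNR among them. Their median log2 fold change was -0.06, with a range from -1.30 to 0.68, the value of HRNR, and DESeq2 called 0 of them. At an unadjusted p-value below 0.05 there were 2 with DESeq2, 2 with edgeR and 1 with limma-voom, where 6.92%, 7.39% and 7.40% of all genes tested passed. Both cadmium libraries lay above both controls for 6 (12.2%, against 20.3% of all genes tested) and below both for 14 (28.6%, against 19.9%). The median log2 ratio of control 3 to control 2 over these neighbours was -0.02. Taken the other way round, the log2 ratio of control 2 to control 3 was -0.63 for S100A4 and -1.14 for S100A2. Both were thus higher in control 3. This ratio was -0.38 for S100A6, -0.74 for S100A13 and -3.29 for S100A14. For S100A10, S100A16, S100A11 and S100A3 it was -0.08, -0.07, 0.06 and 0.08. Around S100P, 14 neighbours were expressed at this level and DESeq2 called 0 of them. An unadjusted p-value below 0.05 was reached by 1 in DESeq2 and 2 in edgeR and in limma-voom, beside the same shares over all genes. The log2 fold changes of the 14 had a median of -0.00 and ranged from -2.70 for SORCS2 to 1.59 for PPP2R2C. For SORCS2 the value was 4.23 without control 2 and -3.70 without control 3, and for PPP2R2C 0.72 and 4.11. Both cadmium libraries lay above both controls for 3 (21.4%) and below both for 1 (7.14%).

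**Figure D4:**
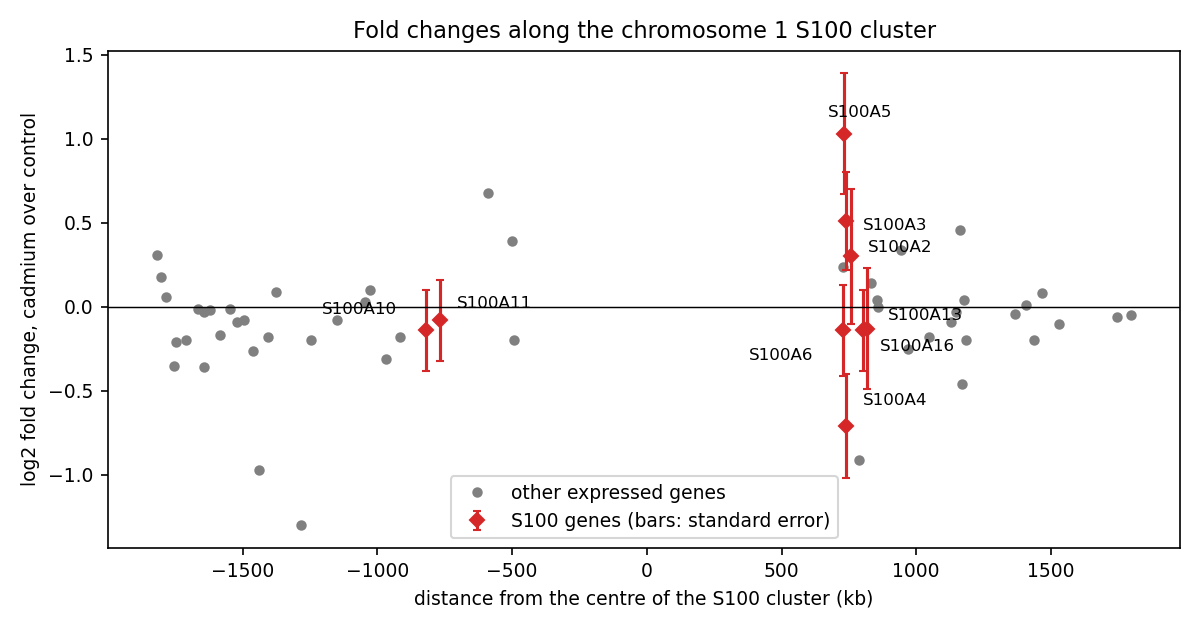
DESeq2 log2 fold change, cadmium over control, against the distance in kb from the centre of the chromosome 1 cluster, for S100 genes (red, with standard errors) and other genes (grey) averaging at least 100 normalized counts. The grey genes include the fused-type FLG and HRNR. S100A5, S100A3, S100A4 and S100A6 lie next to each other and spread from 1.03 to -0.71. The grey points range from -1.30 to 0.68, with a median of -0.06.

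Targets and receptors of S100 proteins were examined as a list of known binding proteins. The list was chosen with earlier results of these data known, so a call within it is not independent of that choice. Of its 18 genes 17 were tested, and DESeq2 called 1, FGF1, which was higher, where 1.14% of all genes tested were called. At an unadjusted p-value below 0.05 there were 2 with DESeq2, 4 with edgeR and 4 with limma-voom, where 6.92%, 7.39% and 7.4% of all genes passed. Both cadmium libraries lay above both controls for 4 (20.3% of all genes tested) and below both for 3 (19.9% of all genes tested). FGF1 encodes the growth factor that S100A13 helps to export. It had 145 and 149 normalized counts in the controls and 490 and 539 in the cadmium libraries, with no overlap and little spread within either group. The mean rose from 147 ± 2.89 to 514 ± 34.9 (SD, n = 2 each), and DESeq2 gave a log2 fold change of 1.81 ± 0.32 (SE, adjusted p = 1.96e-05). It lay between 1.73 and 1.87 when 1 library was left out, but the DESeq2 adjusted p-value was 0.995 without cadmium 1 and 1 without cadmium 2. The call was also absent in edgeR (adjusted p = 0.674) and in limma-voom (adjusted p = 0.656), which called no gene of the table. S100A13 itself was not called, and its groups overlapped.

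Among receptors, TLR4 had 2915 and 2626 normalized counts in the controls and 5347 and 3828 in the cadmium libraries, and the DESeq2 log2 fold change was 0.73 ± 0.30 (SE, adjusted p = 0.416). AGER, which encodes RAGE, the receptor for several secreted S100 proteins, had 157 and 334 in the controls and 297 and 250 in the cadmium libraries. S100PBP, whose protein binds S100P, had 1828 and 1377 in the controls and 1027 and 1125 in the cadmium libraries, with -0.58 ± 0.29 (SE) as its log2 fold change and 0.718 as its DESeq2 adjusted p-value. AHNAK and IQGAP1 had log2 fold changes of 0.06 and -0.34. The median log2 fold change of the list was 0.01.

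Annexins, the calcium-dependent membrane proteins to which S100A10, S100A11 and S100A6 dock, had -0.01 as their median log2 fold change. DESeq2 called 0 of the 12 tested, where 1.14% of all genes tested were called. ANXA2 had 101966 and 89206 normalized counts in the controls and 92196 and 101621 in the cadmium libraries. ANXA1 and ANXA11 had log2 fold changes of 0.03 and -0.28. S100A10 had 28.9% and 34.8% as many reads as ANXA2 in the controls and 29.6% and 27.4% in the cadmium libraries, which overlapped. Per length it had 330% and 398% of the ANXA2 level in the controls and 338% and 313% in the cadmium libraries. The per-length values rest on the gene lengths of the count table, 1012 bases for S100A10 and 11574 for ANXA2. At an unadjusted p-value below 0.05 there were 2 annexins with DESeq2, as with edgeR and limma-voom. Of all genes tested with these tools, 6.92%, 7.39% and 7.4% passed. By DESeq2 these were ANXA10 with a log2 fold change of 2.59 from low counts (6 and 8 reads in the controls, 24 and 62 in the cadmium libraries) and ANXA4 with -0.70.

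**Figure D5:**
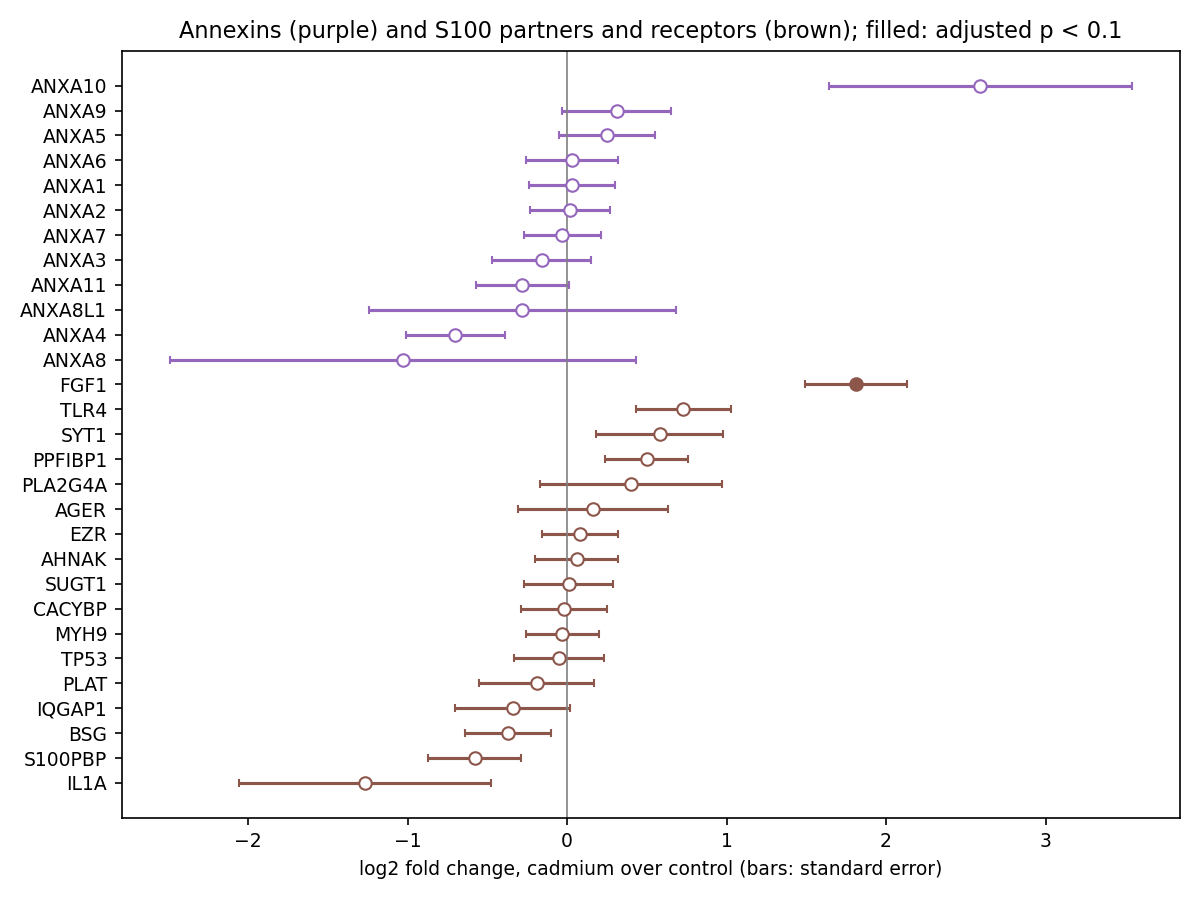
DESeq2 log2 fold changes, cadmium over control, with standard errors for the 12 tested annexins (purple) and the 17 tested partners and receptors (brown), with filled symbols for an adjusted p-value below 0.1. FGF1 at 1.81 is the only filled point, and ANXA1, ANXA2, MYH9 and AHNAK sit within 0.06 of 0.

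The nearest patterns were described by the root mean square difference over the 4 libraries of log2(normalized count + 1) after centring. For S100A4, FHOD3 (0.0302) and DHRS4L2 (0.0360) were among the nearest of 12923 other genes averaging at least 100 normalized counts, and the nearest member was S100A6 (0.291). FHOD3 had 2743 and 4143 normalized counts in the controls and 2168 and 2159 in the cadmium libraries, which is the order of S100A4 except between the cadmium libraries. S100P was farthest from any member, at 1.69 from S100A14.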

How the data were processed

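RNA-seq libraries were 2 control and 2 cadmium-resistant. The deposited table holds unnormalized counts for each gene. According to the header and the published methods, the authors trimmed reads with bbduk, aligned them to hg38 with hisat2 and counted exons of an Ensembl annotation with featureCounts 2.0.1 at default settings. Strand was ignored, multi-mapping and multi-gene reads were dropped, and each mate was counted, so a fragment can give 2 counts. Of counts from 1 to 20, 70.6% to 71.5% were even. Control columns are numbered 2 and 3, the header command calls those files A and B, and the labels number them 1 and 2, so they carry only the group. Symbols matched 61369 of 61541 genes.

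All genes were fitted together with DESeq2 1.42.0 in R 4.3.3 (Wald test, two-sided, Benjamini-Hochberg adjustment, threshold 0.1), the tool of the study. Intervals for fold changes are 95% normal intervals, and those for read ratios are binomial (Clopper-Pearson), cover counting error only and treat reads as independent, and were repeated on halved counts. The DESeq2 filter removed genes averaging under 7.69 normalized counts. The alternatives were edgeR 4.0.16 (quasi-likelihood test), limma 3.58.1 (voom), other scalings including removal of a gene length trend, other filters and thresholds, halved counts and each library left out. Scripts were tested on simulated data. The 2 libraries of a group were not copies, with a chi-square per degree of freedom of 20.3 for the cadmium pair. TPM used the gene lengths of the count table. The members and lists were chosen with earlier results of these data known. Named genes were the members, other S100 genes averaging 10 or more normalized counts, listed partners, any called gene of a list and the nearest patterns. Other genes were named after their values were seen, and the motifs and read ratios were also chosen with results known. Protein sequences were not used here. Of the 3 genes nearest to S100A4 in pattern, 1 is not reported here.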

Additional observations from a re-analysis of the deposited data

How the results depend on the processing

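No paired analysis was possible because the numbers on the control columns are not those of the labels. No member was called under any of the alternatives with all 4 libraries. Without 1 library at a time the number of members called ranged from 0 to 3 higher and from 0 to 3 lower, and over all genes from 9 to 2678 higher and from 5 to 3511 lower, with the high values when a control was left out. The 119 higher and 106 lower calls of DESeq2 over all genes became 0 and 0 with edgeR and with limma-voom, where 1422 and 1423 genes passed 0.05 before adjustment, and 152 and 88 with upper-quartile factors. Under alternatives with all libraries, 78 member fold changes kept their sign and their side of the threshold. The other 2, which changed sign, were S100A14 at 0.22 and S100P at 2.60 with limma-voom, and the cause was not tested. With 1 library left out, log2 fold changes ranged from -0.16 to 0.97 for S100A2, -0.32 to 0.06 for S100A6, -0.46 to 0.27 for S100A13, -1.53 to 2.06 for S100A14 and -1.13 to 6.39 for S100P. For S100A4 they ranged from -0.99 to -0.37 and for S100A3 from 0.32 to 0.67.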
